A study of Sus scrofa with 24 samples.

Results

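Genes for the proteins of the cytoplasmic ribosome were examined in RNAseq data from the livers of 24 pigs. Their mRNA levels were read as a measure related to the capacity for protein synthesis. Ribosomes and protein synthesis themselves were not measured. The members were the genes of the count table whose symbol starts with RPL or RPS followed by a number, or is RPSA, RPLP0, RPLP1 or RPLP2, with at least 100 counts summed over all libraries. No difference between groups entered this rule. Of the 13463 genes in the table, 49 have such a symbol. Leaving out 9 kinases named RPS6K, 1 hyphenated symbol and 1 gene under the count minimum left 38 members. Of these, 14 are canonical proteins of the large subunit, 20 are canonical proteins of the small subunit and 4 are paralogs or look-alikes (RPL3L, RPL7L1, RPS27L and RPL36AL). The 34 canonical members are part of a list of 77 canonical genes, and the other 43 were not analysed here. A further 5 rows carry no symbol in the table although the reference table of gene names gives their identifiers a matching symbol, and these rows were not taken as members. The identifier listed as RPL22 is named ICMT in that reference table, so its identity is uncertain.

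The pigs were hybrids of Large White × Landrace sows and Duroc boars. They were Sustanon-treated (testosterone esters, 4 mg/kg b.w., 3 barrows, 3 gilts and 2 boars), Myodine-treated (a nandrolone ester, spelled Myodin in the labels, 5 mg/kg b.w., 2 barrows, 3 gilts and 3 boars) or untreated (3 barrows, 3 gilts and 2 boars). Treated pigs received 5 intramuscular injections at intervals of 4 days and were slaughtered 4 days after the last one, and each pig gave 1 liver library. Barrows are castrated males, gilts are females (sow in the labels) and boars are uncastrated males. The paper lists liver samples of a further testosterone-treated boar and a further control boar, which are not in this series. The study's methods also describe a single earlier injection of each agent in a preclinical phase. The paper reports that a pig of the nandrolone group was euthanized in that phase and that the other animals went on to slaughter. The labels do not say whether these pigs had received that injection. Control pigs were housed in a room of their own, so treatment and room cannot be told apart.

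The cytoplasmic ribosome reads mRNA on its small subunit and joins amino acids on its large subunit, and nearly all of its proteins are present in equal number. Their mRNAs carry a terminal oligopyrimidine (TOP) tract through which growth signals acting on mTORC1, the kinase complex that senses nutrients and hormones, set their translation. The liver makes most of the proteins of blood plasma, and anabolic steroids promote the growth of muscle.

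Library totals ranged from 9267780 to 14017276 counts. In 3 control libraries the count of KDM5D, a gene of the Y chromosome, went against the labelled sex. The libraries labelled control gilt 16 and control gilt 18 had 35 and 95 counts, and the library labelled control barrow 15 had 0. All other gilts had 0 and all other males had 36 to 82. Control barrow 15 is also absent from the study's heat map. The main values below use all 24 libraries as labelled, and values without these 3 libraries are given for the counts and medians over the members and for part of the single genes. The other gene lists and the cell markers were read with all 24 libraries only. The liver label was checked against hepatocyte markers, of which 7 of 10 were in the table. Together these 7 took between 115168 and 245732 CPM (counts relative to the library total) of each library. In bulk tissue, fewer cells of a type and less RNA per cell cannot be told apart.

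Ribosomal protein mRNAs were among the most abundant in these livers. On the TPM scale (a share of all transcripts, corrected for length), the mean level of a canonical member ranged from 369.9 for RPS27A to 3127 for RPL27A, with a median of 1491 over the 34 genes. RPL27A was followed by RPL10, a protein of the large subunit that joins it late in assembly, at 2810 TPM, and by RPLP2, an acidic protein of the ribosomal stalk, at 2732 TPM. RPS18 and RPS12, both of the small subunit, followed at 2475 and 2265 TPM. These 5 neighbours in the order overlapped in their ranges over the 24 pigs. RPS27A, which is made as a fusion with ubiquitin, and RPS6, the substrate of the ribosomal S6 kinases (396.9 TPM), were the lowest canonical members in TPM. The order differs in CPM, which is not corrected for length. There the control means were 965.6 for RPS27A and 1142 for RPS6, against 371.8 for RPS15.

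The paralogs lay below every canonical member in mean level. RPL36AL, a close copy of RPL36A, had a mean of 243.6 TPM, RPS27L, a paralog of RPS27, had 93.2, and RPL7L1, a nuclear relative of RPL7 that takes part in maturation of the large subunit, had 84.7. RPL3L, a paralog of RPL3 known mainly from heart and skeletal muscle, was the lowest member with 18.04 TPM ± 8.54 (SD, n = 24). How reads shared between such copies were counted is not given in the sources used here, so levels of paralogs are uncertain.

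**Figure D1:**
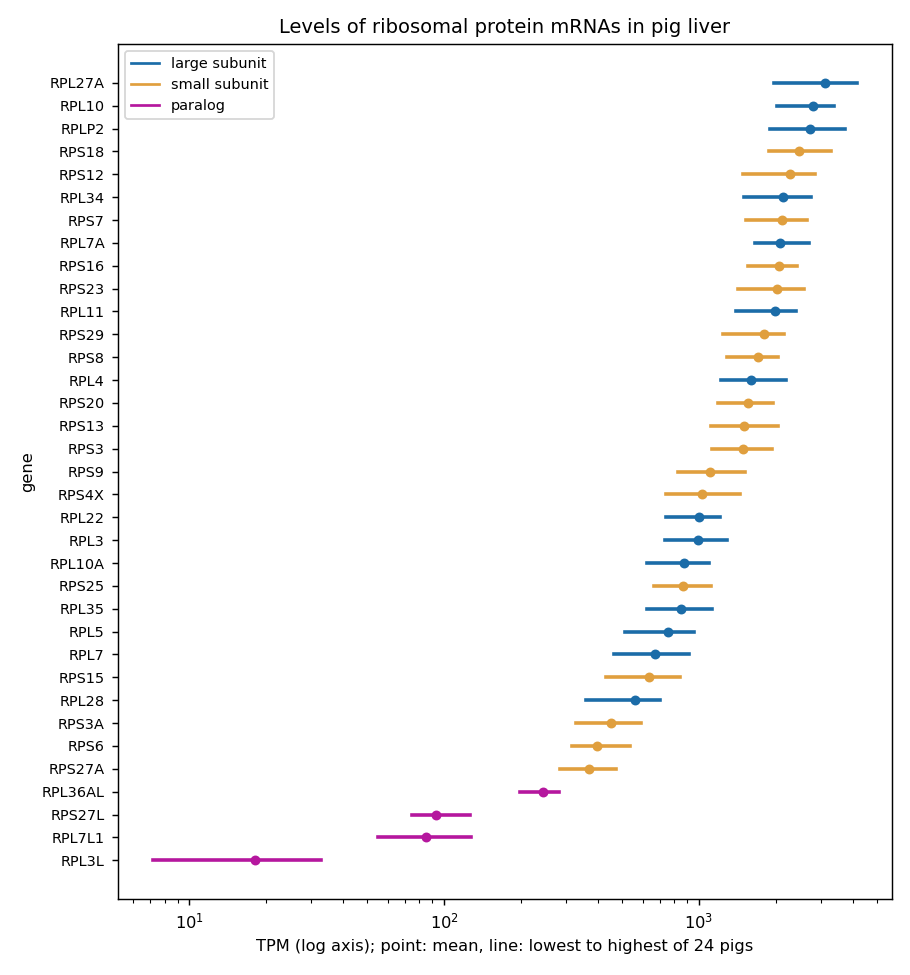
TPM of 35 members in the liver, on a log axis; the point is the mean and the line runs from the lowest to the highest of 24 pigs. The 31 canonical genes drawn sit between 369.9 and 3127 TPM on average, and the 4 paralogs lie below them.

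Canonical members varied little from pig to pig. Their coefficient of variation over the 24 pigs had a median of 12.7% and was lowest for RPS27A (10.03%), without regard to treatment. The biological coefficient of variation that edgeR estimates within treatment groups had a median of 15.1% for the canonical members. This median was 20.3% for the 8279 genes tested. It was 21.5% for the 325 tested genes with a mean CPM at or above that of RPS15, the lowest canonical member in CPM. RPL3L was the exception among the members, with 35.7%. The members map to 10 chromosomes of Sscrofa11.1 in RefSeq, with 8 each on chromosomes 1 and 6, and RPL10 and RPS4X on X.

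The first question was whether the ribosomal proteins as a group took a different part of the liver mRNA after treatment. Control pigs gave them between 2.02% and 3.28% of all counts, with a mean of 2.69% ± 0.375 (SD, n = 8). Sustanon-treated pigs ranged from 2.33% to 2.94%, with 2.56% ± 0.210 (SD, n = 8), and Myodine-treated pigs from 2.15% to 3.02%, with 2.74% ± 0.269 (SD, n = 8). No treated pig lay outside the range of the 8 controls, whose lowest is control gilt 16. By sex and castration the means were 2.71% ± 0.219 in 8 barrows, 2.62% ± 0.283 in 9 gilts and 2.67% ± 0.391 in 7 boars (SD), and these ranges overlapped too. Without the 3 libraries that went against their labels, the 5 remaining controls had a mean of 2.76% ± 0.334 (SD) and ranged from 2.43% to 3.28%, and 3 Sustanon-treated pigs and 1 Myodine-treated pig lay below that range. In TPM the 38 genes took 5.03% ± 0.525 (SD, n = 24) of a library. These shares are given as a description, with no test.

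**Figure D2:**
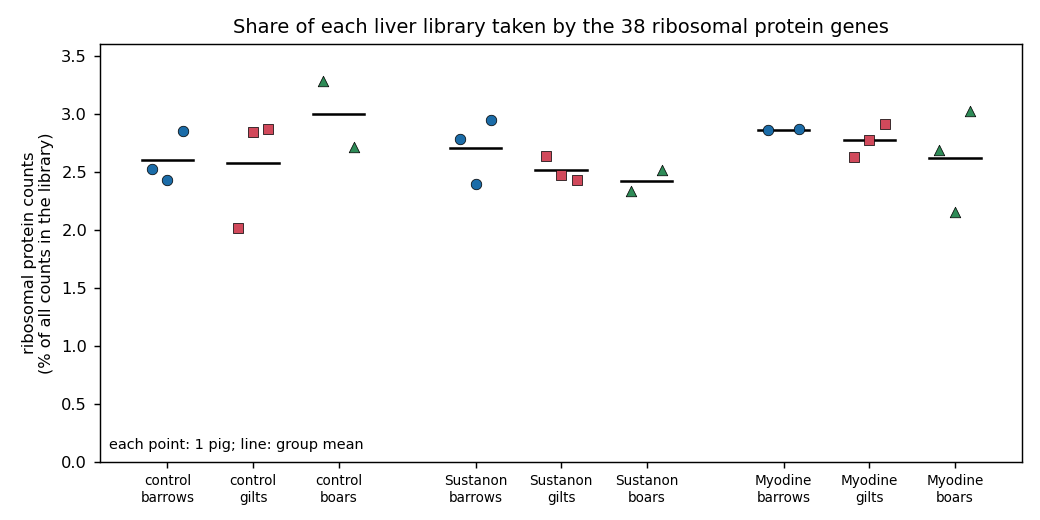
Percent of all counts in a library that fell on the 38 members, for each pig by treatment and sex; each point is 1 pig and the line is the mean of its group. The 16 treated pigs lie between 2.15% and 3.02%, inside the range of the 8 controls (2.02% to 3.28%), and 4 of them lie below the 5 controls that match their labels (2.43% to 3.28%).

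The balance of the subunit members was described as a ratio. It covers 14 of the 46 listed large subunit genes and 20 of the 31 listed small subunit genes. Its level therefore depends on which genes are members and is not the balance of whole subunits. Counts of small subunit members divided by counts of large subunit members gave 1.199 ± 0.014 in controls, 1.24 ± 0.026 in Sustanon-treated and 1.22 ± 0.046 in Myodine-treated pigs (SD, n = 8 each). Of the 8 Sustanon-treated pigs, 6 lay above every control, and of the 8 Myodine-treated pigs 3 lay above and 2 below every control. The 5 controls that match their labels had 1.21 ± 0.0084 (SD). Without RPL27A, the most counted member, the ratios were 1.44 ± 0.020, 1.47 ± 0.027 and 1.47 ± 0.046, 2 of the 8 Sustanon-treated pigs lay above every control, and 3 Myodine-treated pigs lay above and 1 below. No test was made of these ratios.

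Sustanon treatment was compared with no treatment gene by gene. Of the 38 members 1, RPL3L, passed edgeR's quasi-likelihood test at a Benjamini-Hochberg adjusted p under 0.05, against a background of 5.07% of the 8279 genes tested (3.39% higher). None of the 34 canonical members did, and 0 of them had an unadjusted p under 0.05, against 19.6% of all genes tested. DESeq2 and limma also called 0 canonical members. The log2 fold changes of the canonical members had a median of -0.01, the same as the median over all genes tested, and ranged from -0.20 (RPL27A) to 0.15 (RPL10A). When the 3 libraries that went against their labels were left out, 16 were above 0 and 18 below, with a median of -0.02. Over all alternatives the median ran from -0.03 to 0.03, and from -0.04 to 0.02 with each pig left out. The direction was split, with 15 above 0 and 19 below, against 51.9% below 0 for all genes tested.

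The precision of this comparison is given by the confidence intervals. The 95% confidence interval lay within a 1.5-fold change in either direction for all 34, a bound chosen after the values were seen. The largest negative value belonged to RPL27A, a large subunit protein. Control pigs had 1653 to 2494 CPM of RPL27A with a median of 2094, and Sustanon-treated pigs had 1174 to 2218 with a median of 1769. The groups overlapped, with 2 Sustanon-treated pigs below every control and none above. RPL27A differed by -0.20 on the log2 scale (SE 0.12, adjusted p = 0.396, edgeR), and by -0.17 without the 3 libraries against their labels. With 1 pig left out the difference ran from -0.25 to -0.13. Among the members reported singly, RPL4, which lines the tunnel through which the new chain leaves, was next in this direction (-0.11). The paralog RPL36AL (-0.10) and RPL3, a protein near the catalytic centre (-0.09), followed.

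Among the canonical members with positive values, RPL10A of the large subunit had the largest. Its level was 477.7 to 648.1 CPM in controls (median 546.5) and 563.8 to 659.3 CPM in Sustanon-treated pigs (median 619.7). Sustanon-treated pigs lay in the upper part of the control range and 1 lay above it. RPL10A differed by 0.15 on the log2 scale (SE 0.08, adjusted p = 0.316, edgeR), and by 0.13 without those 3 libraries. RPS4X, the small subunit protein encoded on the X chromosome, had 0.14, RPS7 had 0.11, and RPS23, a protein of the decoding centre, had 0.11. No member named here other than RPL3L passed the test.

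**Figure D3:**
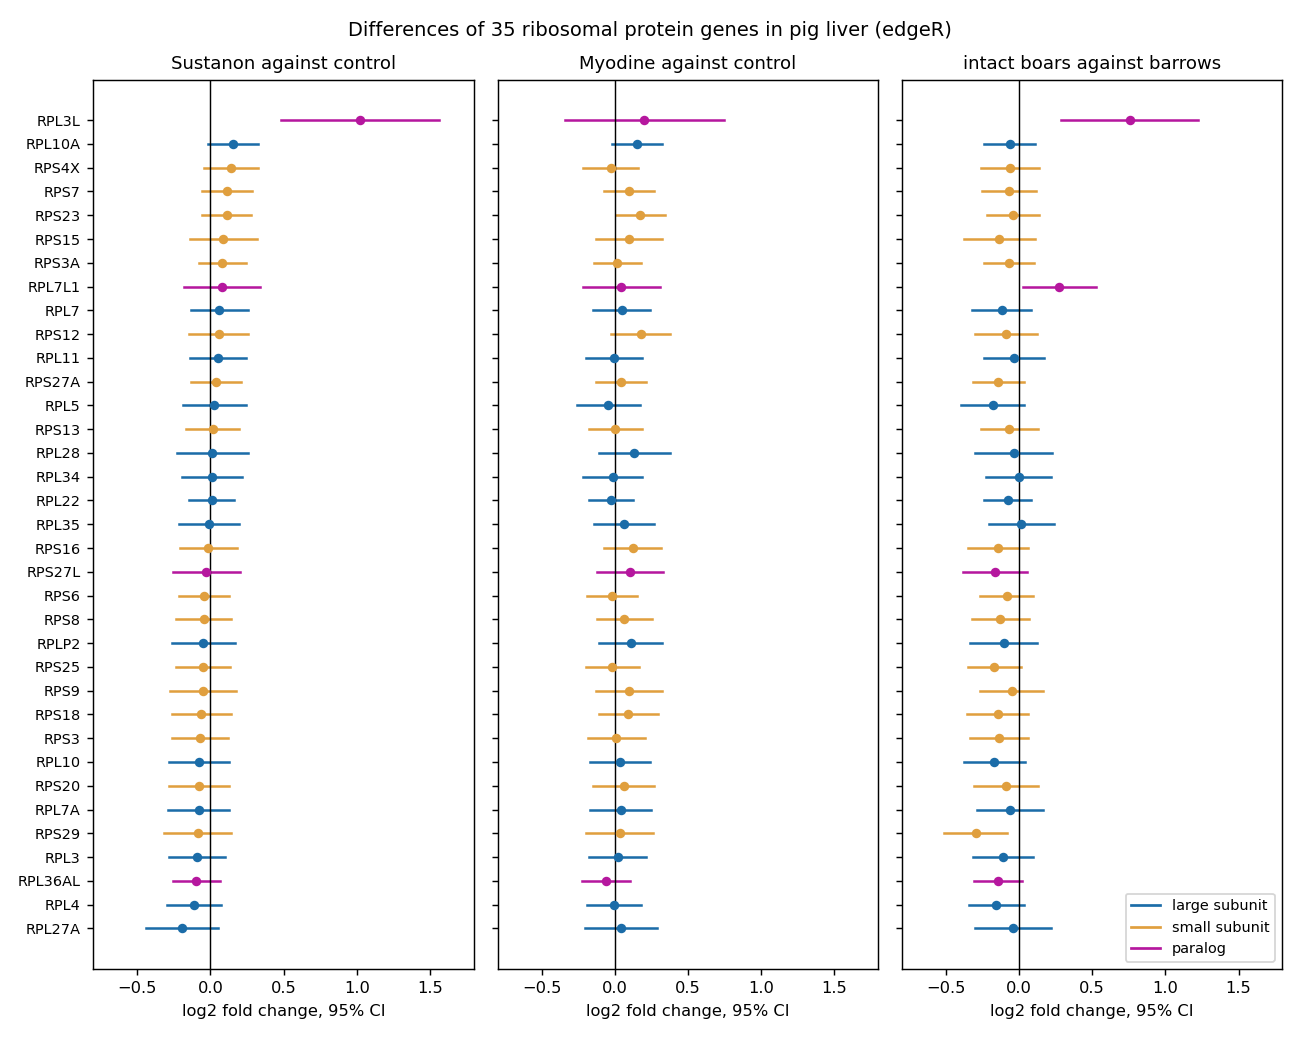
The log2 fold change of 35 members with its 95% confidence interval from edgeR, for Sustanon against control, Myodine against control, and intact boars against barrows; colours mark the subunit or paralog. All canonical intervals drawn lie within 1.5-fold in the 3 comparisons, and RPL3L stands apart on the right for Sustanon with 1.02.

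RPL3L rose with Sustanon. The gene lies at chr3:40004907-40016702 (Sscrofa11.1). Control barrows had 8.2, 9.9 and 10.8 CPM, control gilts 7.7, 9.5 and 9.9, and control boars 16.8 and 14.6. Sustanon-treated barrows had 19.1, 23.3 and 12.6 CPM, gilts 25.9, 24.7 and 21.6, and boars 24.3 and 26.2. Of the 8 Sustanon-treated pigs, 7 lay above every control, and the lowest, barrow 3, lay above all control barrows and gilts. Among barrows and gilts the Sustanon-treated and control ranges did not overlap, which held for 2.04% of all genes tested in this direction. The log2 fold change was 1.02 (SE 0.26, 95% confidence interval 0.48 to 1.56, adjusted p = 0.0240, edgeR).

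RPL3, the gene for the protein whose place RPL3L can take, did not pass the test. RPL3 had 625.4 to 826.6 CPM in controls and 602.8 to 792.4 CPM in Sustanon-treated pigs, with a log2 fold change of -0.09 (SE 0.09, adjusted p = 0.667, edgeR). Counts of RPL3L were 1.499% ± 0.326 of those of RPL3 in controls and 3.32% ± 0.841 in Sustanon-treated pigs (SD, n = 8 each). RPL3L therefore stayed a small fraction of the RPL3 level in every pig, at most 4.43%.

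**Figure D4:**
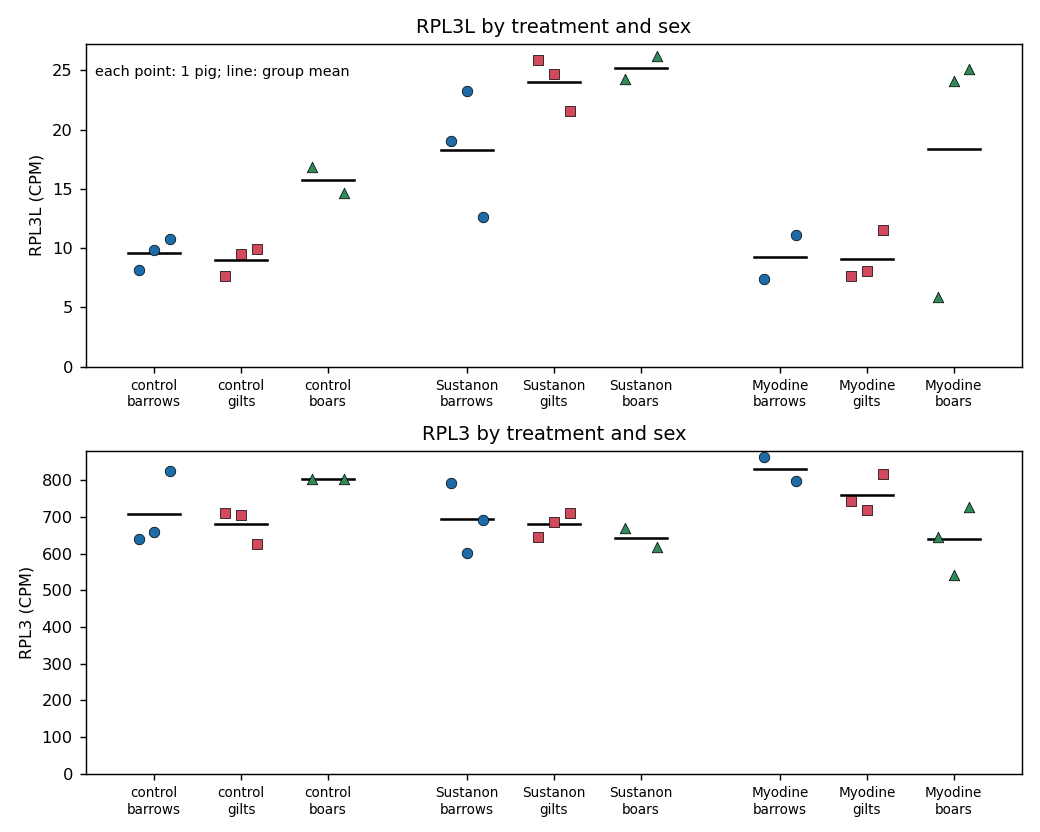
RPL3L (top) and RPL3 (bottom) in CPM for each pig by treatment and sex; each point is 1 pig and lines are group means, with both axes starting at 0. RPL3L in Sustanon-treated pigs (12.6 to 26.2 CPM) lies mostly above controls (7.7 to 16.8 CPM), and 2 of 3 Myodine-treated boars are as high, while RPL3 overlaps between all treatments.

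The size of the RPL3L difference was stable and its call was not. Without the 3 control libraries that went against their labels, the log2 fold change was 0.91 with an adjusted p of 0.182 (edgeR), and in that fit 0 of 8434 genes passed. The call was also lost without Sustanon-treated gilt 5 (0.998, adjusted p = 0.0503), Sustanon-treated boar 19 (1.003, adjusted p = 0.0519) or control barrow 13 (0.97, adjusted p = 0.0529), each by edgeR. It held with sex as a covariate (1.06, adjusted p = 0.00405, edgeR), in barrows and gilts alone (1.18, adjusted p = 0.000350, edgeR), with DESeq2 (1.03, adjusted p = 0.00414) and when limma was run on log2(TPM + 1) (0.98, adjusted p = 0.0199). Over all these settings the adjusted p ranged from 0.000350 to 0.182.

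Within each sex, the difference in RPL3L was 0.93 in barrows, 1.41 in gilts and 0.68 in boars on the log2 scale, with adjusted p of 0.274, 0.0614 and 0.556 (edgeR). In gilts it passed with DESeq2 (1.42, adjusted p = 0.00768), and by edgeR without Myodine-treated boar 22 (1.399, adjusted p = 0.00256) or boar 23 (1.41, adjusted p = 0.0443), pigs that enter this difference only through the shared spread and scaling. Of the 3 control gilts only gilt 17 matched its label, and without the 3 libraries against their labels the differences were 1.02 in barrows, 1.33 in gilts and 0.68 in boars (adjusted p of 0.461, 0.562 and 0.590, edgeR). The effect in boars minus that in barrows and gilts was -0.49 (95% confidence interval -1.52 to 0.54, adjusted p = 0.837, edgeR), so a difference between pigs with and without testes was not detectable with 2 Sustanon-treated boars. RPL3L had only 71 to 280 counts per library.

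RPL3L overlaps NDUFB10, a subunit of respiratory complex I, by 744 bases. NDUFB10 had 78.3 ± 8.75 CPM in controls and 69.0 ± 12.9 CPM in Sustanon-treated pigs (SD, n = 8 each, before TMM scaling). On the other side, without overlap, lies MSRB1, a methionine sulfoxide reductase, with 485.8 ± 90.7 CPM in controls and 586.9 ± 69.5 CPM in Sustanon-treated pigs on the same scale. The means of the 2 neighbours thus lay on opposite sides of the controls, and the part of either in the RPL3L result was not tested. Of 11 skeletal muscle markers, a list added after the RPL3L values had been seen, 8 were in the table and none passed the filter on low counts. Their summed level was 3.5 to 8.2 CPM in controls, 4.5 to 8.3 in Sustanon-treated and 3.9 to 6.1 in Myodine-treated pigs. The highest of them, MYBPC1, a myosin-binding protein, had a median of 20.5 counts in controls and 33 in Sustanon-treated pigs, while the muscle creatine kinase CKM had 6 and 7. The part of muscle RNA in the RPL3L result was not tested.

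Myodine treatment was not accompanied by a detectable change in the members. By edgeR 0 of 38 passed, against a background of 0% of the 8279 genes tested, and DESeq2 and limma also called 0. At an unadjusted p under 0.05 there was 1 member, RPS23, against 7.21% of all genes. RPS23 had 472.4 to 665.6 CPM in controls (median 549.9) and 550.4 to 695.2 CPM in Myodine-treated pigs (median 647.4), and the groups overlapped (log2 fold change 0.17, SE 0.08, adjusted p = 0.670, edgeR). The canonical members had a median log2 fold change of 0.04, with 26 of 34 above 0, against a median of 0.00 and 51.2% above 0 for all genes tested. This median was 0.01 without Myodine-treated boar 24, 0.09 without boar 23 and 0.12 in barrows and gilts alone, and with limma it was -0.01, where the median over all genes was -0.04. Without the 3 libraries that went against their labels it was 0.05, with 27 of 34 above 0, 0 members had an unadjusted p under 0.05 (4.23% of all genes), and RPS23 was at 0.12 (adjusted p = 0.9998, edgeR).

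The members' values for Myodine were small in both directions. After RPL3L (0.20), the largest were RPS12 of the small subunit (0.18), RPS23 (0.17), RPL10A (0.15) and RPL28 of the large subunit (0.13). RPL28 ran from 0.061 to 0.21 with 1 pig left out, and from 0.030 to 0.25 over the other alternatives. The lowest were RPL36AL (-0.06), RPL5, which brings the smallest ribosomal RNA into the large subunit (-0.05), RPS4X (-0.03), RPL22 (-0.02) and RPS6 (-0.02). With 1 pig left out RPL36AL ran from -0.083 to -0.0075. All 34 canonical members had a 95% confidence interval within a 1.5-fold change. The 2 treatments share the 8 control pigs, so their values are not independent.

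RPL3L with Myodine split within the boars. Myodine-treated barrows had 7.4 and 11.096 CPM and gilts 7.6, 8.1 and 11.5, all within or near the range of control barrows and gilts. Among Myodine-treated boars, boar 22 had 5.8 CPM, the lowest of all pigs, and boars 23 and 24 had 24.1 and 25.1, as high as Sustanon-treated boars. In serum, the paper reports testosterone for the high boars of this group and for the control boars. It reports none for the low boar, or for barrows and gilts given Myodine or left untreated. Whether RPL3L follows serum testosterone was not tested here. The log2 fold change against controls was 0.20 (95% confidence interval -0.34 to 0.74, adjusted p = 0.937, edgeR), and it was -0.03 in barrows and gilts alone, -0.02 without boar 24 and 0.09 without the 3 controls against their labels.

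Sustanon and Myodine were also compared with each other, at doses that differ (4 and 5 mg/kg b.w.). By edgeR 0 of 38 members passed, against a background of 0.664% of the genes tested, and DESeq2 and limma also called 0. By edgeR that background was 0 genes without Sustanon-treated gilt 5, and 278 higher and 263 lower without Myodine-treated boar 23. With all pigs 1 member, RPL3L, had an unadjusted p under 0.05 in edgeR (18.1% of all genes). RPL3L was 0.82 higher on the log2 scale with Sustanon (95% confidence interval 0.28 to 1.36, adjusted p = 0.107, edgeR). It passed with sex as a covariate (0.99, adjusted p = 0.0144), in barrows and gilts alone (1.21, adjusted p = 0.00167), without Myodine-treated boar 23 (1.02, adjusted p = 0.0167) and without Myodine-treated boar 24 (1.04, adjusted p = 0.0435), each by edgeR. RPL7L1 passed in barrows and gilts alone (0.34, adjusted p = 0.0478, edgeR) and was 0.03 in all pigs. The canonical members had a median of -0.08 (-0.05 without Myodine-treated boar 24, -0.12 without boar 22, and -0.10 to -0.02 over the other alternatives) and all 34 intervals lay within a 1.5-fold change.

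The effect of the testes was examined by comparing intact boars with barrows over all treatments, with treatment as a covariate. By edgeR 0 of 38 members passed, against a background of 1.92% of 8332 genes tested. DESeq2 called 1, RPL3L (0.75, adjusted p = 0.0332), and limma called 0. At an unadjusted p under 0.05 edgeR gave 3 members, RPL3L and RPL7L1 higher and RPS29 lower in boars, against 17.9% of all genes. Of the 38 members 35 had a log2 fold change below 0, with a median of -0.09 for the canonical members, against 47.2% below 0 and a median of 0.02 over all genes tested. Without the 3 libraries that went against their labels 31 of 38 were below 0. The median for the canonical members was then -0.07, and with a single pig left out it was -0.16 without control boar 25 and -0.05 without Myodine-treated boar 23. It was -0.17 in treated pigs only and -0.03 with limma, where the median over all genes was 0.07.

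RPL3L had 7.4 to 23.3 CPM in 8 barrows (median 10.9) and 5.8 to 26.2 CPM in 7 boars (median 24.1). Of the 7 boars 4 lay above every barrow and 1 lay below every barrow. The log2 fold change was 0.76 (SE 0.23, adjusted p = 0.0796, edgeR), and without Myodine-treated boar 22 it passed (0.88, adjusted p = 0.00897, edgeR). For that boar the paper reports no serum testosterone. In control pigs alone, where no hormone had been injected, the RPL3L difference was 0.71 (95% confidence interval -0.11 to 1.54, adjusted p = 0.422, edgeR) with 2 boars against 3 barrows, and 0.80 (adjusted p = 0.510, edgeR) without the 3 libraries against their labels. Over all treatments the difference without them was 0.79 (adjusted p = 0.0969, edgeR).

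RPS29, a small zinc-binding protein of the small subunit encoded at chr1:179454923-179456847 (Sscrofa11.1), had the most negative value of the members. Barrows had 505.1 to 693.7 CPM (median 579.0) and boars 381.7 to 667.6 CPM (median 510.6). The 3 boars below every barrow were Sustanon-treated boars 19 and 20 and Myodine-treated boar 23, while the control boars had 531.4 and 521.0 CPM. RPS29 differed by -0.29 on the log2 scale (SE 0.10, adjusted p = 0.137, edgeR) and by -0.26 without the 3 libraries against their labels, and it passed without Myodine-treated boar 24 (-0.37, adjusted p = 0.0488, edgeR).

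RPL7L1, in contrast, had 104.9 to 124.1 CPM in barrows (median 110.7) and 108.6 to 195.8 CPM in boars (median 122.3), and 3 of 7 boars lay above every barrow. The difference was 0.27 (SE 0.12, adjusted p = 0.232, edgeR), and 0.29 without those 3 libraries. With 1 pig left out it ran from 0.16 to 0.35. RPL5 (-0.18), RPL10 (-0.17), RPS25 (-0.17) and RPS27L (-0.17) were the next lowest in boars, and RPL35 (0.02) and RPL34 (0.00) stood nearest to 0.

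Of the leukocyte markers 0 of 7 passed in this comparison, against 1.92% of all genes. All 7 had values above 0 in boars with a median of 0.23, against 4402 of 8332 genes tested. At an unadjusted p under 0.05, 2 were higher, against 747 of 8332 genes. The part of leukocytes in the lower values of the ribosomal protein genes was not tested. Gilts and barrows did not differ detectably, with 0 of 38 members called by edgeR, DESeq2 or limma, against a background of 0% of 8332 genes. At an unadjusted p under 0.05 there were 2 members, RPS27L (-0.26) and RPS9 (-0.24), against 9.88% of all genes. Of the 38 members 32 were below 0 in gilts, against 47.5% of all genes, with a median of -0.04 for the canonical members. This comparison holds all 3 libraries that went against their labels. Without them 13 of 38 members were below 0, the canonical median was 0.03, and 0 members were called, against 0.169% of 8291 genes. RPS27L was then at -0.29 (adjusted p = 0.323, edgeR) and RPS9 at -0.21 (adjusted p = 0.447, edgeR).

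The treatment differences were also compared between pigs with and without testes. In the fit with a mean for each of the 9 groups, the Sustanon difference in boars had a median of -0.18 over the canonical members, against -0.04 in barrows and 0.12 in gilts. Without the 3 libraries that went against their labels these medians were -0.18, 0.07 and 0.00. The 95% confidence interval lay within a 1.5-fold change for 17 of the 34 canonical members in boars and 32 each in barrows and gilts. The effect in boars minus that in barrows and gilts was below 0 for all 38 members, against 49.9% of all genes, with a median of -0.23 for the canonical members against 0.00 for all genes tested. This median was -0.20 without the 3 libraries that went against their labels, -0.11 without control boar 25 and -0.33 without control boar 27. By edgeR 0 members passed, against a background of 0.0604%, and 0 had an unadjusted p under 0.05, against 7.43% of all genes. DESeq2 and limma also called 0. The interval of this contrast lay within a 1.5-fold change for 4 of the 34. The members rise and fall together from pig to pig, so 38 equal signs are not 38 separate observations.

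For Myodine the same contrast had a median of -0.25 over the canonical members, with 29 of 34 below 0, against 48.5% of all genes. Without the 3 libraries that went against their labels it was -0.24, without control boar 25 it was -0.13, and without Myodine-treated boar 23 it was -0.15. By edgeR 0 members passed, against a background of 0.109%, and DESeq2 and limma called 0. At an unadjusted p under 0.05, 6 canonical members were lower, against 5.48% of all genes. These were RPL3 (-0.53), RPL7 (-0.52), RPS12 (-0.50), RPLP2 (-0.50), RPS4X (-0.47) and RPL4 (-0.41), with a smallest adjusted p of 0.263. The interval lay within a 1.5-fold change for 7 of the 34. RPL7L1 was higher (0.43, adjusted p = 0.369, edgeR), and 6.82% of all genes were higher at this level. Without injections, boars against barrows had a median of 0.03 over the canonical members (0.14 without the library labelled control barrow 15 and the 2 gilts that went against their labels, and -0.07 without control boar 25), with 0 of 38 called by edgeR, DESeq2 or limma (background 0.761%) and 0 at an unadjusted p under 0.05 (14.1% of all genes).

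The canonical members moved as a block in single pigs. For each gene the deviation of log2 CPM from its mean over the 24 pigs was taken, and the median over the 34 genes in a pig ranged from -0.33 to 0.23. Myodine-treated boar 23 was the lowest, with the lowest level of all pigs in 22 of the 34 genes and no gene above its median over the pigs. Control gilt 16 had the lowest level in 9 genes. At the other end, Myodine-treated boar 24 had the highest level in 10 genes, control barrow 15 in 7 and Myodine-treated barrow 8 in 6.

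Low and high pigs occurred in more than 1 treatment group. The median deviation was -0.01 ± 0.146 in controls, -0.02 ± 0.086 in Sustanon-treated and 0.03 ± 0.173 in Myodine-treated pigs (SD, n = 8 each), and the spread within each group exceeded the differences between them. Myodine-treated boars alone spanned -0.33 to 0.17. Both Sustanon-treated boars were low, at -0.13 and -0.15, and both Myodine-treated barrows were high, at 0.17 and 0.11. Of the 3 libraries that went against their labels, gilt 16 was low (-0.21), barrow 15 was the highest of all (0.23) and gilt 18 was at -0.07.

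**Figure D5:**
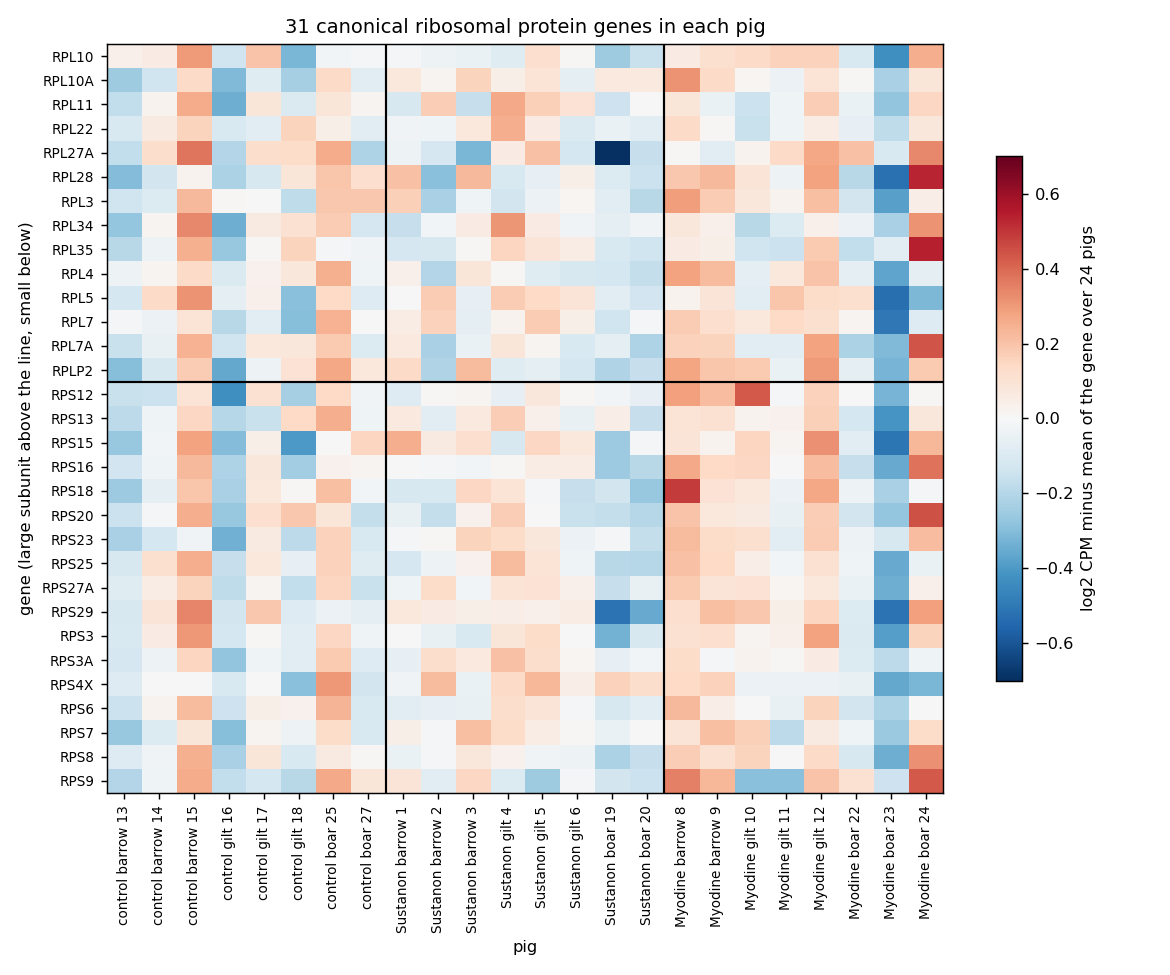
Deviation of log2 CPM from the mean of each gene over 24 pigs, for 31 canonical members (rows, large subunit above the line) and each pig (columns, by treatment); red is higher and blue lower. Columns carry most of the pattern, with Myodine-treated boar 23 low (median -0.33) and control barrow 15 high (0.23).

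A few genes left the block in single pigs. RPL27A in Sustanon-treated boar 19 had 1174 CPM, against 1538 to 2218 CPM in the other Sustanon-treated pigs. In Myodine-treated boar 24, RPL7 and RPS4X were at 671.8 and 628.3 CPM, below the Myodine median (763.8 and 762.1), although most members were high in this pig. RPS12 had its highest value, 1119 CPM, in Myodine-treated gilt 10, whose median deviation was 0.05.

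No difference from the controls was detected in the remaining paralogs with Sustanon. RPL36AL had 231.5 to 327.3 CPM in controls and 212.9 to 269.4 CPM in Sustanon-treated pigs (-0.10, adjusted p = 0.565, edgeR), and RPS27L had 93.7 to 115.3 and 89.2 to 137.7 CPM (-0.03, adjusted p = 0.925, edgeR). RPL7L1 had 106.1 to 131.4 and 105.6 to 143.0 CPM (0.08, adjusted p = 0.804, edgeR). The differences without the 3 libraries against their labels were -0.07 for RPL36AL, -0.07 for RPS27L and 0.07 for RPL7L1. With 1 pig left out RPL36AL ran from -0.12 to -0.044. The 3 paralogs overlapped between the groups. In Myodine-treated boar 24, RPL7L1 (195.8 CPM) and RPS27L (147.9 CPM) were both at their highest of all pigs, whereas in boar 23 RPL7L1 was at 143.1 and RPS27L at 93.5 CPM.

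Other genes of the translation machinery were read beside the members for Sustanon against control. In each of 6 lists 0 genes passed edgeR's test after Benjamini-Hochberg adjustment over all genes. Of 12 further genes with TOP mRNAs, such as translation factors, 1 was lower at an unadjusted p under 0.05 and the median was -0.13. EIF3E, a subunit of initiation factor eIF3, had 203.1 ± 30.3 CPM in controls and 173.1 ± 17.7 with Sustanon (log2 fold change -0.23, adjusted p = 0.248, edgeR). Of 26 ribosome biogenesis genes 3 were lower and 0 higher at that level, with a median of -0.11. NOP14, which acts in maturation of the small subunit, had -0.47 (adjusted p = 0.0720, edgeR), and NAT10, which acetylates ribosomal RNA, had -0.44 (adjusted p = 0.171, edgeR).

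Of 16 initiation factors 1 was higher and 2 were lower at an unadjusted p under 0.05, with EIF2B2, a subunit of the exchange factor for eIF2, at 0.38 (adjusted p = 0.0524, edgeR) and EIF3M at -0.26 (adjusted p = 0.0762, edgeR). Of 16 genes of mTORC1 signalling and translation control 4 were higher and 2 lower, with values from -0.61 to 0.37. SESN2, an inhibitor of mTORC1 in amino acid shortage, had the lowest value (-0.61, adjusted p = 0.0996, edgeR). EIF2AK2 had -0.50 (adjusted p = 0.356, edgeR). Of 13 cytoplasmic aminoacyl-tRNA synthetases, which load tRNAs, 1 was higher, CARS1 (0.26, adjusted p = 0.192, edgeR). Of 39 proteins of the mitochondrial ribosome 1 was lower, MRPL34 (-0.25, adjusted p = 0.229, edgeR), and the median was 0.01. The corresponding share over all genes tested was 10.8% higher and 8.83% lower.

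With Myodine 0 genes passed in each of the 6 lists by edgeR. Of the 26 biogenesis genes 22 were below 0, of 16 initiation factors 14, of 13 aminoacyl-tRNA synthetases 9, of 12 other genes with TOP mRNAs 8, of 16 mTORC1 and translation control genes 9 and of 39 mitochondrial ribosomal proteins 16, against 48.8% of all genes. Of the biogenesis genes 4 were lower at an unadjusted p under 0.05 (2.81% of all genes), with a median of -0.12.

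Markers of other liver cell types were measured in the same fits, and 0 passed with either treatment. Over all genes tested, 5.07% passed with Sustanon and 0% with Myodine. The share of all genes below 0 was 51.9% for Sustanon and 48.8% for Myodine. For Sustanon against control, 7 of 7 hepatocyte markers and 4 of 4 stellate and stromal markers were above 0 (medians 0.22 and 0.46), and 5 of 7 leukocyte, 3 of 4 endothelial, 3 of 3 bile duct and 2 of 2 red blood cell markers were below 0. For Myodine, 3 of 3 bile duct, 2 of 2 red blood cell and 3 of 4 stellate and stromal markers were below 0 (medians -0.58, -0.68 and -0.30), and 5 of 7 leukocyte, 3 of 4 endothelial and 4 of 7 hepatocyte markers were above 0 (medians 0.23, 0.12 and 0.01). None of the 6 markers of cycling cells was among the genes analysed. Summed leukocyte markers were 668.3 to 927.2 CPM in controls, 606.8 to 859.8 with Sustanon and 684.4 to 960.6 with Myodine, so the ranges overlapped. The part of cell composition in the ribosomal protein values was not tested.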

How the data were processed

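RNAseq was performed on 1 liver library from each of 24 pigs. Stranded libraries were made from poly-A RNA by the authors, who used docker4seq with Skewer for trimming and STAR 2.5 for alignment, to Sscrofa 11.1 per the processing notes. The counting tool and its handling of shared reads are not given in the sources used here. The authors deposited raw counts of reads per gene, not normalized. A second deposited table holds log2 values of TPM with a pseudocount of 1. TPM were recovered from the deposited log2 values.

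Counts were tested in R 4.3.3 with edgeR 4.0.16 (filterByExpr, TMM, quasi-likelihood test, two-sided, Benjamini-Hochberg adjustment over all genes tested, threshold 0.05). Treatments were compared in a single fit of 3 groups without sex as a factor, since the study describes comparisons of treated with control pigs and its model is not given in the sources used here. Boars and gilts were compared with barrows with treatment as a covariate, and differences between treatment effects came from a fit of 9 groups. Confidence intervals are at 95%. CPM of single genes use TMM unless stated otherwise, and summed marker CPM were taken before TMM scaling. The log2 CPM deviations were taken without a prior count. The script's tests were tested on simulated data. Each pig is the replicate; each group had a pen of its own, so p-values measure the spread between these pigs only.

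Alternatives were DESeq2 1.42.0, RLE, TMM without the ribosomal protein rows, no count filter, limma 3.58.1 on the deposited log2 values, sex as a covariate, barrows and gilts only, treated pigs only, the 2 groups alone, 23 pigs without control barrow 15, 21 pigs without the 3 controls against their labels, and each pig left out in turn. The comparison of boars with barrows without gilts was added after seeing the data.

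Members and gene lists were chosen with earlier results of these data known. Named singly were members past the threshold, the 5 largest differences in each direction for Sustanon, Myodine and boars, the 5 highest and lowest levels, and all paralogs. Of the 38 members, 3 enter every count and summary but their single values are not reported here. Genes named outside this rule, among them RPL7, NDUFB10 and MSRB1, were chosen after their values were seen. Coordinates are RefSeq's for Sscrofa 11.1, in which all 38 members have a row. Promoter and protein sequences were not used here.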

Additional observations from a re-analysis of the deposited data

Results flagged for a closer look

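In 108 groups of values a single pig was tested for standing apart from the rest of its group, and 8 values did, against about 1 in 20 groups by chance. Of these, 3 belong to Myodine-treated boars. Boar 23 was low in RPL7 (505.1 CPM against 671.8 to 807.9 in the other 7 Myodine-treated pigs) and in the share of all counts taken by the 38 genes (2.15%). Boar 24 was high in RPL35 (765.1 CPM). Boar 23 had the lowest level of all pigs in 22 of the 34 canonical genes, and boar 24 had the highest in 10. Other extremes belonged to other pigs, such as control gilt 16 (lowest in 9) and control barrow 15 (highest in 7). Both low values belong to boar 23 and RPL7 is part of the share, so they are not separate events. Whether the RPL35 value of boar 24 is separate from its other high values was not tested.

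The other 5 are spread over 4 pigs. Control barrow 15, whose KDM5D count of 0 went against its label, had 327.3 CPM of RPL36AL, and control boar 25 had 966.3 CPM of RPS4X. Sustanon-treated gilt 4 had 609.99 CPM of RPL22 and 602.3 CPM of RPL34, and Sustanon-treated barrow 3 had 137.7 CPM of RPS27L. Each of these was the highest of its treatment group.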

How the results depend on the processing

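In Sustanon against control the call of RPL3L was lost without the 3 controls against their labels (0 members called) and without Sustanon-treated gilt 5, Sustanon-treated boar 19 or control barrow 13 (0 to 1 over all pigs left out in turn). Over all genes, the calls were 281 higher and 139 lower, 405 and 232 with DESeq2, and 0 without those 3 controls. They were 142 and 56 without Sustanon-treated boar 19, and 359 and 254 without Sustanon-treated barrow 1. For Sustanon against Myodine, 1 member was called with sex as a covariate, 2 in barrows and gilts only, and 0 to 1 with pigs left out. For boars against barrows, DESeq2 called 1 and leaving out pigs gave 0 to 1. With limma the median over the canonical members was -0.43 for the Myodine effect in boars minus that in barrows and gilts and 0.23 for boars against barrows in controls, where the medians over all genes were -0.15 and 0.18. RPL3L in the former was -0.17 with limma and -0.063 to 0.68 with pigs left out. Small differences that changed sign were, for Myodine, RPL22 (0.016 without the 3 controls, -0.046 to 0.0072 with pigs left out), RPL3L (-0.027 in barrows and gilts, -0.017 to 0.33), RPL5 (0.0025 without barrow 15, 0.058 in barrows and gilts, -0.080 to 0.014), RPS4X (0.11 in barrows and gilts, -0.062 to 0.034) and RPS6 (0.013 without barrow 15, 0.066 in barrows and gilts, -0.051 to 0.024). For boars against barrows, RPL34 was 0.052 with limma, 0.050 without barrow 15 and 0.049 without the 3 controls (-0.061 to 0.050 with pigs left out) and RPL35 was -0.078 to 0.060 with pigs left out. None of these passed the test under any setting, and the cause was not tested. No paired analysis was possible because each pig number in the labels occurs once. RPL3L had the fewest counts of the members, 71 to 280 per library, and the part of depth in its spread was not tested.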
